A study of Mus musculus with 21 samples.

Results

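Presentation of peptides on MHC class I was followed through 10 listed genes, chosen by function as heavy chains, the light chain, peptide transport and loading genes, immunoproteasome subunits and a transactivator. H2-T23 was set beside the others because its difference between the tumor groups compared here was already known. Of the 10 genes listed, 9 had a named probe set among the 19505 genes of the array: H2-T23, H2-K1, H2-D1, B2m, Tap1, Tap2, Tapbp, Psmb8 and Psmb9. Each of the 9 had a single probe set, so that no choice between probe sets was made. Nlrc5 had no probe set under that name in the annotation used and was not analyzed here. All 9 measured genes were retained, since no filter on low signal was applied, and the lowest value of any of them in any tumor lay 1.61 above the median of that array's background probes on the log2 scale (Psmb9).

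MHC class I molecules carry peptides from inside the cell to the cell surface, where CD8 T cells and NK cells read them. The proteasome cuts the peptides, with the catalytic subunits Psmb8 and Psmb9 taking the place of their constitutive counterparts in the immunoproteasome, Tap1 and Tap2 form the transporter that moves peptides into the endoplasmic reticulum, and Tapbp (tapasin) holds the transporter and the empty class I molecule together. A class I molecule pairs a heavy chain with the light chain B2m. In the mouse H2-K1 and H2-D1 encode classical heavy chains, and H2-T23 encodes Qa-1, a nonclassical heavy chain that presents leader peptides of other class I molecules to the NK receptor pair CD94 and NKG2. Nlrc5 is the transactivator of class I promoters, and interferon gamma raises most of these genes together.

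The arrays held RNA of rhabdomyosarcomas (RMS) from the trunk and limb of 2 kinds of mice, with 14 tumors from Neu1+/−/Ptch1+/−/ETV7 TG+/− (NPE) mice and 7 tumors from Ptch1+/−/ETV7 TG+/− (PE) mice. Both groups therefore carried 1 inactive allele of Ptch1, the receptor that holds the hedgehog pathway in check, and a transgene of human ETV7, an ETS factor, and NPE mice also lacked 1 allele of Neu1, the lysosomal sialidase. The labels give no age, sex, site or litter for a tumor, and the methods say that males and females were used and that tumor-bearing NPE and PE mice did not always come from 1 litter. Neu1 mice of the FVB/NJ strain had been crossed to Ptch1 and ETV7 mice of other strains. Because Neu1 lies among the class I genes on chromosome 17, the Neu1 genotype and any linked strain alleles cannot be told apart. Near-identical class I genes may share signal on an array, so the value of a single heavy chain is uncertain in that respect.

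The deposited values are log2 signals of the robust multiarray average (RMA), and a difference of 1 on this scale is 2-fold. Array medians lay between 5.32 and 5.41 in NPE tumors and between 5.33 and 5.37 in PE tumors. The muscle markers that define RMS were measured in all tumors, with Myog between 6.08 and 9.96 in NPE tumors and between 9.68 and 9.97 in PE tumors. NPE tumor 3 had the lowest Myog, Myod1 and Des of all 21 tumors. The differences of H2-T23, Tapbp and Psmb8 are given with and without it, while correlations of single genes are not. Several tumors of neighboring title numbers resembled each other, and whether they came from 1 animal is not given in the labels, so that p-values measure the spread between these tumors. The last numbers in the tumor titles fell into 3 ranges, 1 to 10 with 8 NPE tumors and no PE tumor, 18 to 23 with 1 NPE and 5 PE tumors, and 28 to 35 with 5 NPE and 2 PE tumors.

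The classical heavy chains and their light chain did not differ between the groups beyond the spread of the tumors. H2-K1 had a lowest, median and highest log2 signal of 8.39, 9.54 and 10.92 in NPE tumors, against 9.02, 9.26 and 10.23 in PE tumors. Its mean was 9.59 ± 0.66 over 14 NPE tumors and 9.49 ± 0.45 over 7 PE tumors (s.d.), a difference of 0.10 (s.e. 0.26, 95% confidence interval -0.43 to 0.64, adjusted p = 0.945 from limma). The PE values lay wholly inside the NPE range, and NPE tumors 2, 1 and 4 were the highest and NPE tumors 11 and 12 the lowest.

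H2-D1 ran from 7.07 through a median of 8.01 to 9.43 in NPE tumors, against 7.64, 8.10 and 8.78 in PE tumors. The difference of means was -0.09 (s.e. 0.24, 95% confidence interval -0.59 to 0.41, adjusted p = 0.949 from limma), and again the PE tumors fell inside the range of the NPE tumors. B2m, the partner of every classical heavy chain, ran from 10.52 through 11.39 to 12.11 in NPE tumors, against 10.96, 11.15 and 11.70 in PE tumors, with a difference of 0.12 (s.e. 0.17, 95% confidence interval -0.23 to 0.47, adjusted p = 0.893 from limma). The same tumors stood at the ends of its range, with NPE tumor 2 highest and NPE tumor 11 lowest.

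H2-T23 was the exception among the heavy chains, and since it was picked out on this contrast its values are given as a description with no test. Its log2 signal had a lowest, median and highest value of 6.14, 7.08 and 8.77 in NPE tumors, against 5.34, 6.11 and 6.67 in PE tumors. The groups overlapped only at their ends, with 11 of 14 NPE tumors above the highest PE tumor and none below the lowest. The mean was 7.14 ± 0.67 over 14 NPE tumors and 6.04 ± 0.50 over 7 PE tumors (s.d.), a difference of 1.10 or 2.14-fold. Among all 22206 probe sets tested this was the 60th largest difference in the direction of NPE. Without NPE tumor 3 it was 1.09. In the title numbers 18 to 23 the single NPE tumor stood at 7.08, against 5.68 to 6.67 in 5 PE tumors, and in 28 to 35 it ran from 6.14 to 7.84 in 5 NPE tumors, against 5.34 and 5.64 in 2 PE tumors. The 8 NPE tumors of the numbers 1 to 10 lay between 6.48 and 8.77. Inside the ranges that held both groups, no NPE tumor was below a PE tumor. This is part of the same description, in ranges with 1 NPE or 2 PE tumors. The share of all probe sets ordered this way was not computed.

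**Figure D1:**
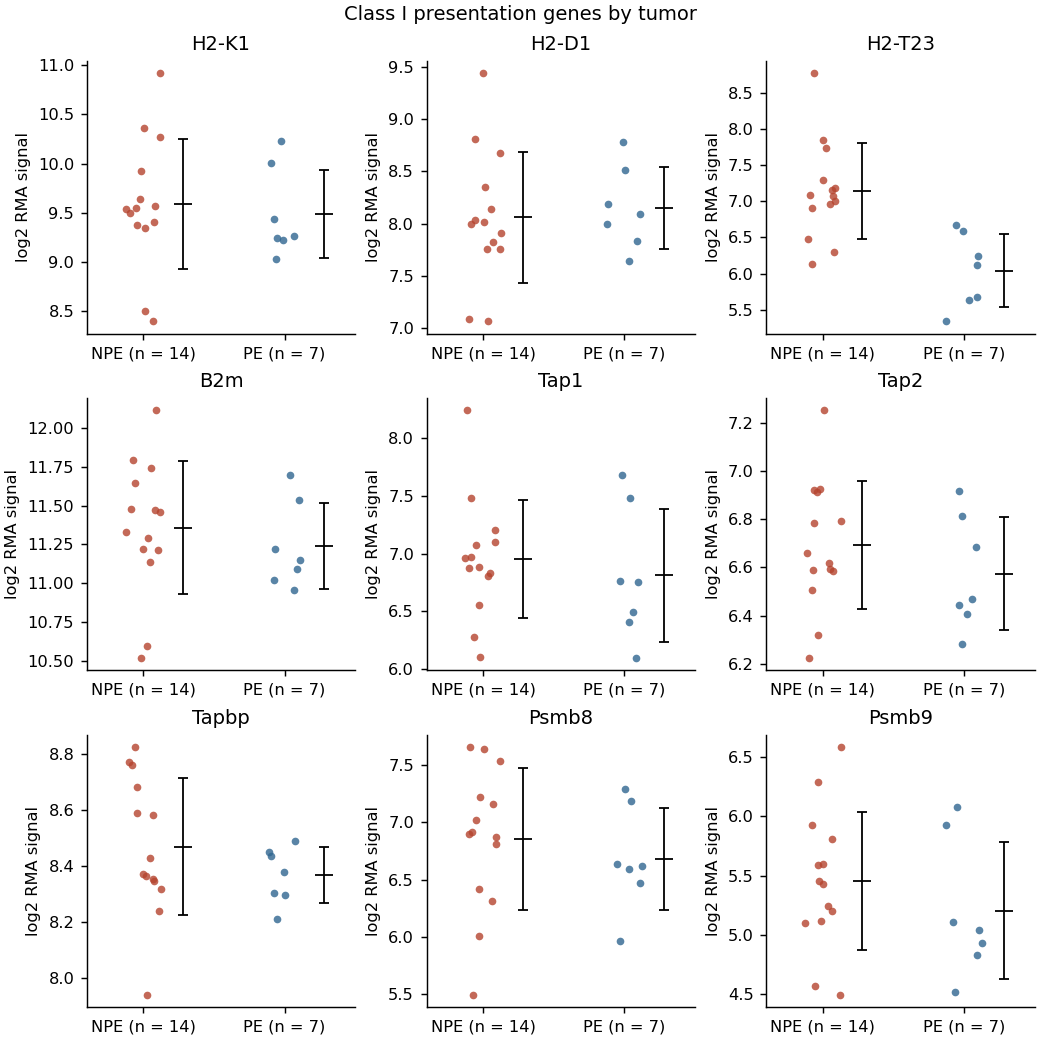
Log2 RMA signal of the 9 measured class I presentation genes, 1 point per tumor, NPE tumors (n = 14) left of PE tumors (n = 7), each panel with its own axis. Bars beside the points give mean ± s.d. H2-T23 has 11 of 14 NPE tumors above every PE tumor, while in the other panels the groups overlap.

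Peptide transport and loading genes had small differences. Tap1 ran from 6.11 through a median of 6.92 to 8.24 in NPE tumors, against 6.10, 6.75 and 7.67 in PE tumors, and the groups covered nearly the same range. Its difference was 0.14 (s.e. 0.23, adjusted p = 0.906 from limma). Tap2, the other transporter subunit, ran from 6.22 through 6.64 to 7.25 in NPE tumors, against 6.28, 6.47 and 6.92 in PE tumors, with a difference of 0.12 (s.e. 0.12, adjusted p = 0.831 from limma). It covered a 2.04-fold range over all tumors, narrower than the 4.39-fold range of Tap1. Tapbp ran from 7.94 through 8.40 to 8.83 in NPE tumors, against 8.21, 8.38 and 8.49 in PE tumors. Its 6 highest tumors were all NPE, and so was the lowest. The difference was 0.10 (s.e. 0.10, adjusted p = 0.822 from limma), and 0.08 without NPE tumor 3, its highest tumor.

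The immunoproteasome subunits behaved likewise. Psmb8 (LMP7) ran from 5.50 through a median of 6.91 to 7.66 in NPE tumors, against 5.96, 6.62 and 7.29 in PE tumors. The difference was 0.17 (s.e. 0.25, adjusted p = 0.892 from limma), and 0.11 without NPE tumor 3, which was again its highest tumor. Psmb9 (LMP2) ran from 4.49 through 5.44 to 6.59 in NPE tumors, against 4.51, 5.04 and 6.08 in PE tumors, and its difference of 0.25 (s.e. 0.25, adjusted p = 0.827 from limma) was the highest of the 8 genes other than H2-T23. Both groups reached nearly down to the same lowest value.

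Of these 8 genes, 7 were higher and 1 lower in NPE tumors, with a median difference of 0.12 against -0.00054 over all tested probe sets, of which 49.8% were higher in NPE tumors. None of the 8 passed an adjusted p of 0.05 in limma, and 0 passed an unadjusted p of 0.05. The background was 0.00901% of the 22206 tested probe sets past the adjusted threshold (2 probe sets, those of H2-Eb1 and of Derl3, a gene of protein degradation from the endoplasmic reticulum) and 8.41% past the unadjusted one. The 95% confidence intervals of the 8 differences together ran from -0.59 to 0.77, or from 0.664-fold to 1.71-fold, so changes within that span are not settled by these tumors. The title-number ranges gave other signs for some genes. Within 18 to 23 the median difference of the 8 genes was -0.069 with a single NPE tumor, and within 28 to 35 it was 0.19.

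The heavy chains have related promoters, and stretches before their transcription starts are shown as a description. H2-T23 was set apart for its difference between the groups. After removing the group means it still varied with H2-K1 and H2-D1 (r of 0.90 and 0.94). The sequences are from the RefSeq promoter windows of build GRCm38.p6, which reach from 250 bases before to 50 bases after a start, and 8 of the 9 measured genes matched a window. Letters were searched on both strands for GAAA, 2 free bases and GAAA, and for GAANNGAAA (a longer and a shorter form of the interferon-stimulated response element, ISRE), TGACGC (the X2 box core of class I promoters), CCAAT and TTCNNNGAA (the gamma-activated site, GAS). Capitals mark these matches. The stretches are H2-K1 at chr17:34000334-34000445 on the minus strand, H2-D1 at chr17:35262936-35263053 on the plus strand, H2-T23 at chr17:36032741-36032833 on the minus strand, B2m at chr2:122147540-122147646 on the plus strand and Psmb8 at chr17:34198090-34198114 on the plus strand.
H2-K1: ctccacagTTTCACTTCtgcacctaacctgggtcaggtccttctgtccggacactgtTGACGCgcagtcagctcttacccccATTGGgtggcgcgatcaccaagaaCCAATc
H2-D1: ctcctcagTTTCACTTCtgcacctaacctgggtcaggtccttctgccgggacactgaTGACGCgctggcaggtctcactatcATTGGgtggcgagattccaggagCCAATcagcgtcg
H2-T23: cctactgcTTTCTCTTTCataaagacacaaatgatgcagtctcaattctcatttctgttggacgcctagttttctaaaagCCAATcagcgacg
B2m: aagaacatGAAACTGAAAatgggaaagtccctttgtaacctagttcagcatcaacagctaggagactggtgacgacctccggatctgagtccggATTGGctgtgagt
Psmb8: ctccgctgTTCCCAGAAgatgcccc

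H2-K1 and H2-D1 shared their ISRE form, TGACGC and both CCAAT matches in the same order, and 119 of 140 bases (85.0%) were identical when the windows were laid on the ISRE without gaps. H2-T23 had the longer ISRE form, as did B2m, together with CCAAT, and TGACGC was not found in its window. Of all 32851 windows, 7.52% held the shorter ISRE form, 3.44% the longer, 7.40% TGACGC, 37.4% CCAAT and 8.30% TTCNNNGAA. The GAS letters were found among the 8 genes in Psmb8 alone. The windows of Tap1 and Psmb9, which are read in opposite directions from neighboring starts, shared 275 of their 300 bases. A match of letters is a description of the window and says nothing of what binds there.

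The members varied together from tumor to tumor. NPE tumor 2 was the highest of the 21 tumors for 7 of the 9 genes and among the top 3 for all 9. NPE tumors 11 and 12, a pair of neighboring title numbers that resembled each other, were each among the lowest 3 for 8 of the 9 genes. In PE tumors, tumor 4 was the highest for 6 genes (H2-K1, H2-D1, B2m, Tap1, Psmb8 and Psmb9), tumor 5 for H2-T23 and Tap2, and tumor 6 the lowest for 7 genes. Across all tumors the signal covered a 10.7-fold range for H2-T23, 5.75-fold for H2-K1, 5.15-fold for H2-D1, 4.48-fold for Psmb8, 4.27-fold for Psmb9, 3.01-fold for B2m and 1.85-fold for Tapbp.

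Correlations were computed for the 36 pairs of measured genes over 21 tumors, with 2-sided permutation tests adjusted over the 36 pairs, and Pearson's r was positive in all of them. H2-K1 and H2-D1 correlated at r = 0.97 (rho = 0.88, permutation p = 1e-05 for both, the smallest that 100000 resamples can give), at 0.95 without the 2 tumors farthest from the median of H2-K1, at 0.99 within NPE tumors and at 0.96 within PE tumors. H2-K1 and B2m, heavy and light chain, correlated at r = 0.96 (rho = 0.93, permutation p = 1e-05 for both), at 0.93 without the 2 farthest tumors, and at 0.95 within NPE and 0.99 within PE tumors. Inside the groups the rank correlation was 0.95 in NPE and 0.89 in PE tumors for H2-K1 with H2-D1, and 0.86 in NPE and 0.89 in PE tumors for H2-K1 with B2m.

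Tap1 and Psmb9, whose promoter windows overlap, correlated at r = 0.94 (rho = 0.97, permutation p = 1e-05 for both), at 0.93 without the 2 farthest tumors, and at 0.95 within NPE and 0.93 within PE tumors. Among the 15 pairs of H2-K1, H2-D1, B2m, Tap1, Psmb8 and Psmb9 the median r was 0.91, with a range of 0.82 to 0.97, and the medians were 0.94 within NPE and 0.96 within PE tumors. For these 15 pairs the median r was 0.90 after removing the means of the 3 title-number ranges.

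Tap2 and Tapbp had lower Pearson r with most of the others in the 7 PE tumors than in the NPE tumors. Tap2 and H2-K1 correlated at 0.89 within NPE tumors (permutation p = 5e-05, adjusted 9.47e-05) and at 0.18 within PE tumors (exact permutation p = 0.687). By rank the values of Tap2 in the groups lay closer, with rho of 0.69 in NPE and 0.64 in PE tumors with B2m, 0.71 in NPE and 0.64 in PE tumors with H2-D1, and 0.53 in NPE and 0.82 in PE tumors with H2-T23. Tapbp and B2m correlated at 0.86 within NPE tumors (permutation p = 5e-05, adjusted 9.47e-05) and at 0.03 within PE tumors (exact permutation p = 0.937). Whether these correlations differ between the groups was not tested, and Tapbp varied more in NPE tumors, with an s.d. of 0.25 (n = 14), against 0.10 in PE tumors (n = 7). The weakest of all pairs was Tap2 with Tapbp, at r = 0.50 (rho = 0.33, permutation p = 0.0215 and 0.145) and at 0.21 without the 2 farthest tumors, so that this relation rests on those tumors.

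**Figure D2:**
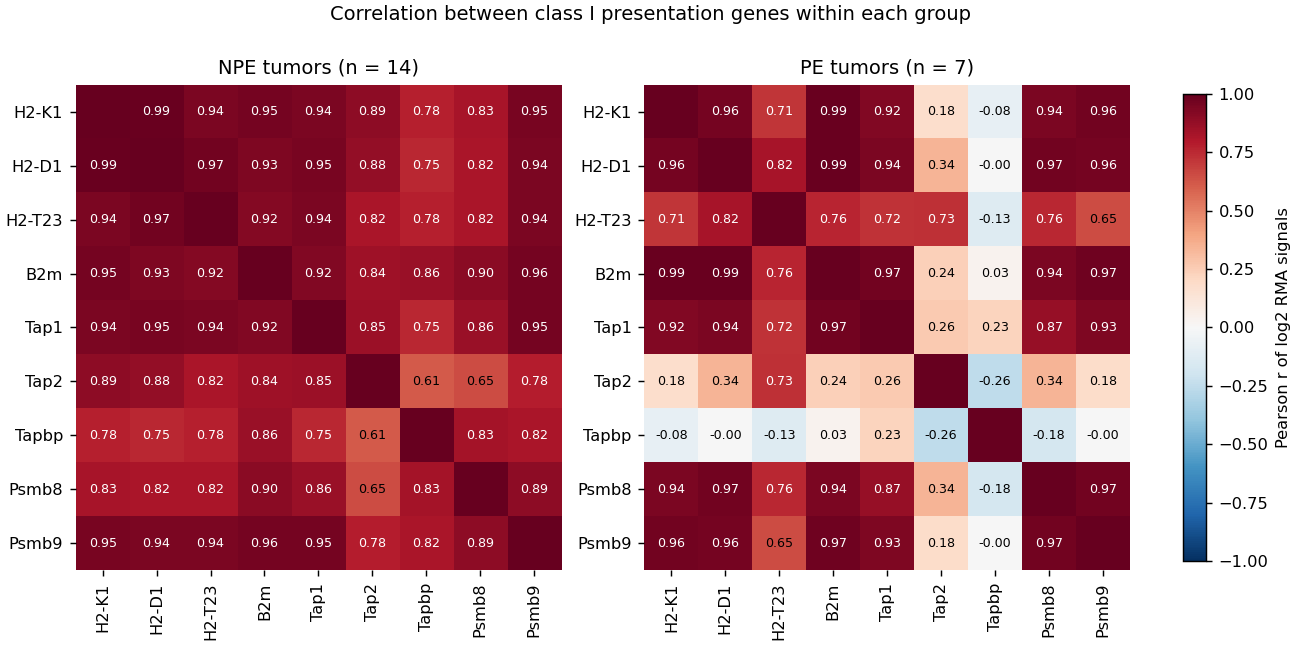
Pearson r between the log2 RMA signals of the 9 measured genes, within NPE tumors (left, n = 14) and within PE tumors (right, n = 7), with r printed in each cell and colors from -1 to 1. H2-K1 with H2-D1 stands at 0.99 in NPE and 0.96 in PE tumors, while in PE tumors the rows of Tap2 and Tapbp are pale except for Tap2 with H2-T23 at 0.73.

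H2-T23 correlated more closely with the other genes within NPE tumors than over all tumors. Over all tumors its r with the 8 others ran from 0.63 to 0.77 with a median of 0.73. All 8 relations passed an adjusted permutation p of 0.05. The median among the 28 pairs of the others was 0.83, but the pooled r of H2-T23 also carries the group difference it was picked on. After removing the group means the medians were 0.86 for H2-T23 and 0.84 for the 28 pairs. Within NPE tumors they were 0.93 and 0.87, and within PE tumors 0.73 and 0.90. In PE tumors Tapbp alone was negative with H2-T23, at -0.13. None of the 8 relations of H2-T23 passed an adjusted exact permutation p of 0.05 there. H2-T23 and H2-D1 correlated at r = 0.65 over all tumors (rho = 0.57, permutation p = 0.00191 and 0.00776) and at 0.49 without the 2 farthest tumors. They correlated at 0.97 within NPE tumors (permutation p = 1e-05) and at 0.82 within PE tumors (exact permutation p = 0.0232, adjusted 0.0522). The pooled value is therefore lower than the value inside either group. Within the title numbers 18 to 23, where 5 of 6 tumors were PE, the median r of H2-T23 with the 8 others was 0.30, and within 28 to 35 it was 0.76.

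Set against the mean of H2-K1 and H2-D1 in the same tumor, the H2-T23 values of NPE and PE tumors did not overlap. H2-T23 was picked out on its difference between these groups, while H2-K1 and H2-D1 differed little. The separation largely carries that difference over and is given as a description with no test. The size of the subtracted value reflects the probes, and only its change between tumors is read here. It had a lowest, median and highest value of -2.10, -1.66 and -1.41 in NPE tumors, against -3.01, -2.92 and -2.14 in PE tumors. All 14 NPE tumors lay above all 7 PE tumors, by a gap of 0.037 between NPE tumor 14 and PE tumor 5. With H2-D1 alone the gap was 0.24, while with H2-K1 or B2m alone 13 of 14 NPE tumors lay above all PE tumors. After the same subtraction, 0.0135% of all tested probe sets (3 of 22206) did not overlap between the groups, namely H2-T23, the class II gene H2-Eb1 and the complement regulator Cd55. Without it the share was 0.00901%, which is H2-Eb1 and Hsf2bp, a gene of meiotic recombination.

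Other nonclassical chains were treated in the same way. H2-T22 minus the mean of H2-K1 and H2-D1 was higher in NPE tumors by 0.68, with 9 of 14 NPE tumors above all PE tumors, H2-T10 by 0.34 with 5 of 14 and H2-Q4 by 0.40 with 1 of 14. H2-M3, which presents formylated peptides, differed by 0.0021 and H2-Q2 by -0.04. The groups overlapped for each of these 5 genes.

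The slope of H2-T23 on the mean of H2-K1 and H2-D1 was 0.99 (s.e. 0.09, n = 14) in NPE tumors and 0.94 (s.e. 0.34, n = 7) in PE tumors. The PE slope is imprecise, and whether the slopes differ was not tested. The subtracted value averaged -1.69 ± 0.19 over 14 NPE tumors and -2.78 ± 0.32 over 7 PE tumors (s.d.), a difference of 1.09. In the range 18 to 23 the single NPE tumor stood at -1.70, against -3.01 to -2.14 in 5 PE tumors. In the range 28 to 35 it ran from -1.81 to -1.49 in 5 NPE tumors, against -2.99 and -2.91 in 2 PE tumors.

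**Figure D3:**
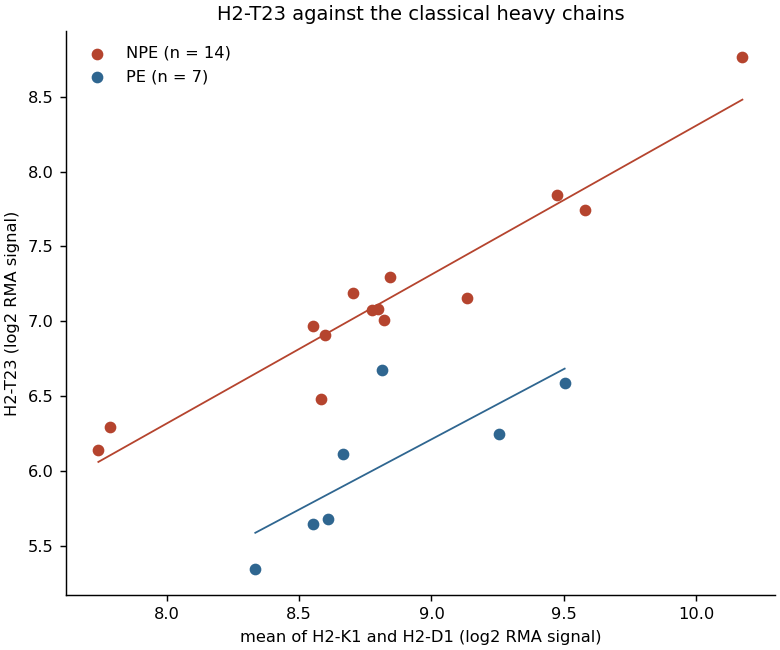
H2-T23 plotted against the mean of H2-K1 and H2-D1, both as log2 RMA signal, 1 point per tumor, with NPE tumors (n = 14) and PE tumors (n = 7) each given a least-squares line. Both groups slope upward, at 0.99 in NPE and 0.94 in PE tumors. The PE points lie below the NPE line, while some PE values of H2-T23 exceed the lowest NPE values.

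The remaining class I heavy chains were measured by 24 further genes, of which 16 were higher and 8 lower in NPE tumors, with a median difference of 0.03. None passed the adjusted threshold and 2 of the 24 passed an unadjusted p of 0.05, a share near the 8.41% of all tested probe sets. Some of the 24 lay near the background probes, such as H2-M1, H2-M10.6, H2-M10.5 and H2-Bl. These averaged 2.46, 2.88, 2.89 and 2.90 in NPE tumors, and the median of 0.03 includes them. H2-T22, the gene next to H2-T23 and a nonclassical chain seen by some gamma delta T cells, averaged 5.53 ± 0.64 over 14 NPE tumors and 4.84 ± 0.59 over 7 PE tumors (s.d.), a difference of 0.69 (s.e. 0.27, adjusted p = 0.524 from limma), with 9 of 14 NPE tumors above all PE tumors. Fcgrt, the heavy chain of the neonatal Fc receptor, differed by 0.37 (s.e. 0.17, adjusted p = 0.580 from limma). H2-T24, on the other side of H2-T23, differed by 0.06 (s.e. 0.08) and H2-Q4 by 0.40 (s.e. 0.33). The direct neighbors of H2-T23 thus had unlike values.

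On chromosome 17, RefSeq places 8 of the 9 measured genes, in the order Tapbp, H2-K1, Psmb9, Tap1, Psmb8, Tap2, H2-D1 and H2-T23, and B2m lies on chromosome 2. Neu1 sits between Tap2 and H2-D1, with 33 protein-coding genes between it and each of them and 67 between it and H2-T23. Neu1 averaged 6.36 ± 0.18 over 14 NPE tumors and 6.62 ± 0.19 over 7 PE tumors (s.d.), a difference of -0.27 (s.e. 0.09, adjusted p = 0.513 from limma). H2-Eb1, a class II gene between Tap2 and Neu1, averaged 7.84 ± 0.55 in NPE and 5.10 ± 0.58 in PE tumors, a difference of 2.74 (s.e. 0.24, adjusted p = 1.64e-06 from limma). Tap2, H2-Eb1, Neu1, H2-D1 and H2-T23 lie in this order along the chromosome, with other genes between them. Their differences were 0.12, 2.74, -0.27, -0.09 and 1.10 in turn. Whether linked strain alleles bear on these values was not tested.

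**Figure D4:**
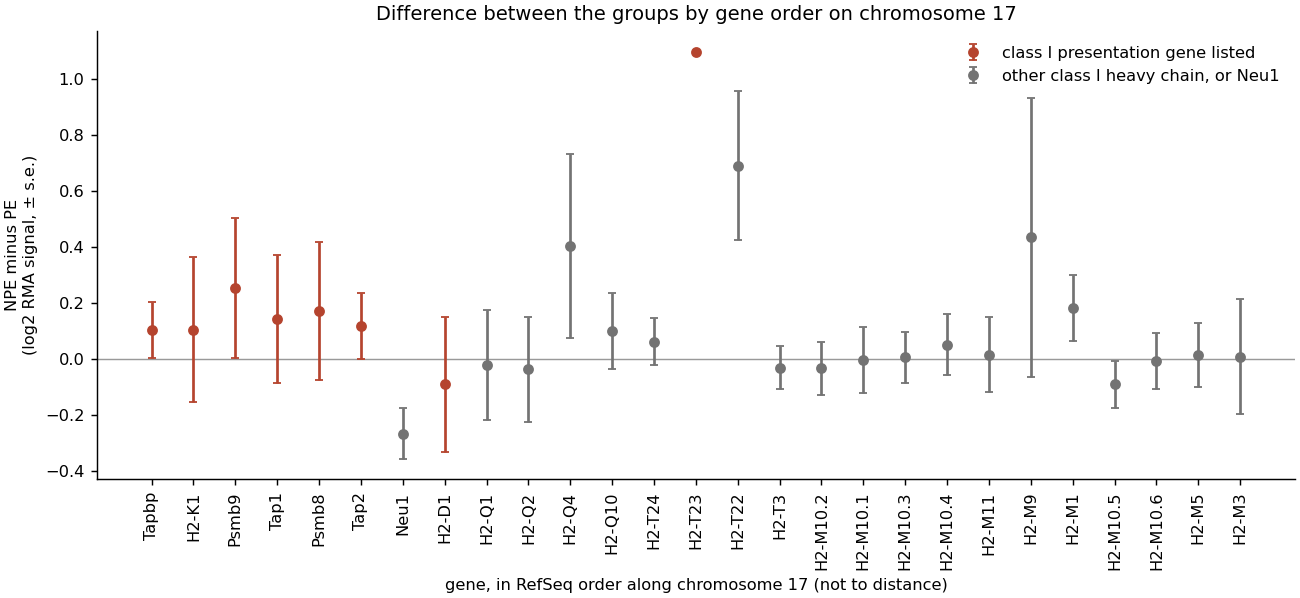
NPE minus PE difference in log2 RMA signal, with s.e. from limma, for the class I presentation genes on chromosome 17, other class I heavy chains and Neu1, in their RefSeq order and not to distance, with no error bar for H2-T23. H2-T23 at 1.10 and its neighbor H2-T22 at 0.69 lie highest, and H2-Eb1, at 2.74, is not drawn.

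Other genes of peptide processing and loading went partly the other way. Of 10 measured, 4 were higher and 6 lower in NPE tumors, with a median difference of -0.11 and none past the adjusted threshold. Calr (calreticulin), a chaperone of newly made class I heavy chains, averaged 10.58 ± 0.19 in NPE and 10.91 ± 0.17 in PE tumors (s.d.), a difference of -0.33 (s.e. 0.09, adjusted p = 0.401 from limma), with 9 of 14 NPE tumors below all PE tumors. Hspa5 (BiP), the main chaperone of the endoplasmic reticulum, differed by -0.41 (s.e. 0.13, adjusted p = 0.498) and had 10 of 14 NPE tumors below all PE tumors. Tapbpl (TAPBPR), a peptide editor related to tapasin, differed by 0.20 (s.e. 0.09, adjusted p = 0.587). These 3 of the 10 genes had an unadjusted p under 0.05 in limma, against 8.41% of all tested probe sets.

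The balance between immunoproteasome and constitutive subunits did not differ beyond the spread of the tumors. Psmb9 minus Psmb6, the constitutive subunit it replaces, averaged -3.63 ± 0.60 over 14 NPE tumors and -3.71 ± 0.43 over 7 PE tumors (s.d.), a difference of 0.09 (exact permutation p = 0.738, adjusted 0.910 over 4 comparisons). Psmb10 minus Psmb7 differed by -0.03 (exact permutation p = 0.866, adjusted 0.910), with an s.d. of 0.48 in NPE and 0.15 in PE tumors. Psmb5, the counterpart of Psmb8, had no probe set under that name in the annotation used. Of the constitutive subunits, Psmb6 differed by 0.17 (s.e. 0.08, adjusted p = 0.569 from limma) and Psmb7 by 0.05 (s.e. 0.09).

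The heavy chains were also set against B2m in the same tumor. H2-K1 minus B2m averaged -1.77 ± 0.28 over 14 NPE tumors and -1.75 ± 0.18 over 7 PE tumors (s.d.), a difference of -0.01 (exact permutation p = 0.910, adjusted 0.910). H2-D1 minus B2m averaged -3.30 ± 0.28 in NPE and -3.09 ± 0.13 in PE tumors, a difference of -0.21 (exact permutation p = 0.0768, adjusted 0.307). Its median was -3.40 in NPE tumors and -3.06 in PE tumors, and the NPE range of -3.73 to -2.68 enclosed the PE values of -3.31 to -2.92.

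Of 18 measured genes of class I transcription and the interferon gamma pathway, 11 were higher and 7 lower in NPE tumors, with a median difference of 0.02. Jak2, a kinase of the interferon gamma receptor, differed by 0.35 (s.e. 0.12, adjusted p = 0.513 from limma). It was the single gene of the 18 with an unadjusted p under 0.05, against 8.41% of all tested probe sets. Irf1, a factor that binds ISRE sequences, differed by 0.01 (s.e. 0.16), and Ciita, the class II transactivator, by -0.15 (s.e. 0.20). Ifng itself averaged 3.28 ± 0.21 in NPE and 3.24 ± 0.15 in PE tumors (s.d.), close to the background probes, whose medians ran from 2.64 to 3.18 on NPE arrays and from 2.66 to 2.90 on PE arrays.

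Interferon-stimulated genes other than the members were mostly higher in NPE tumors without passing the adjusted threshold, 25 of 30 with a median difference of 0.11. Ifit1 differed by 0.67 (s.e. 0.24, adjusted p = 0.513 from limma). It was the 1 gene of the 30 with an unadjusted p under 0.05 in limma, against 8.41% of all tested probe sets. Receptors for class I molecules were measured by 10 genes, of which 3 were higher and 7 lower in NPE tumors. Klrd1 and Klrc1, which encode the CD94 and NKG2A chains that bind Qa-1, averaged 2.65 and 2.46 in NPE tumors and 2.67 and 2.41 in PE tumors, at the level of the background probes. Pirb, an inhibitory receptor for class I molecules on myeloid cells, differed by 0.39 (s.e. 0.18, adjusted p = 0.570 from limma). Of the 10 receptor genes it was the 1 with an unadjusted p under 0.05 in limma, against the same share of all probe sets.

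Over all 21 tumors the 9 genes correlated with markers of T and NK cells and with interferon-stimulated genes, and in bulk tumor RNA fewer cells of a type and less RNA per cell cannot be told apart. Correlations with the mean of 8 marker lists, members left out, were tested by permutation and adjusted over all 72 relations. With 14 T and NK cell markers r ran from 0.57 (Tap2) to 0.93 (Tap1), with a median of 0.88, and all 9 relations passed an adjusted p of 0.05. In this list Klrd1, Ncr1 and Klrk1 lay near the background probes. They averaged 2.65, 2.87 and 3.03 in NPE and 2.67, 2.78 and 2.99 in PE tumors, so a relation with NK cells is not shown. With 30 interferon-stimulated genes r ran from 0.61 (Tapbp) to 0.95 (Tap1), with a median of 0.88, and all 9 passed. The medians within groups were 0.91 in NPE and 0.93 in PE tumors for T and NK cell markers, and 0.90 in NPE and 0.95 in PE tumors for interferon-stimulated genes. In PE tumors Tap2 and Tapbp stood apart from these medians, at 0.08 and 0.18 with T and NK cell markers and at 0.36 and -0.01 with interferon-stimulated genes.

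The mean of the T and NK cell markers lay between 3.74 and 4.85 in NPE tumors and between 3.82 and 4.53 in PE tumors, with Cd3e between 3.73 and 6.94 in NPE and between 3.76 and 5.33 in PE tumors. Of the 14 markers 7 were higher and 7 lower in NPE tumors, with a median difference of 0.02. The mean of 7 pan-leukocyte markers ran from 6.22 to 7.89 in NPE and from 6.69 to 7.57 in PE tumors, and NPE tumor 11, the lowest for 5 of the 9 class I genes, was also lowest for this list. The part of these cells in the class I values was not tested.

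Relations with other lists were looser. Macrophage and dendritic cell markers correlated at a median r of 0.58, from 0.34 (Tap2) to 0.73 (Psmb8), and 7 of 9 relations passed an adjusted p of 0.05. Without NPE tumors 11 and 12 that median was 0.44. Pan-leukocyte markers correlated at a median of 0.71, highest for Psmb8 at 0.86. The RMS and muscle markers correlated negatively with all 9 genes, from -0.74 (Tapbp) to -0.15 (Tap2), with a median of -0.44 within NPE tumors and of 0.75 within the 7 PE tumors, and 2 relations passed. Within PE tumors r with these RMS and muscle markers ran from 0.0052 (Tapbp) to 0.87 (Psmb8). The sign of the median thus differed between the groups, but whether the correlations differ was not tested. NPE tumor 3 had the lowest mean of this list, at 6.06, and the median within NPE tumors was not computed without it. Endothelial markers correlated at a median of 0.65, from 0.47 (H2-D1) to 0.74 (Tapbp), with medians of 0.65 in NPE and 0.26 in PE tumors. All 9 relations passed the threshold. Mature muscle fibre markers correlated at a median of 0.39, from 0.0090 (Tapbp) to 0.48 (H2-T23), and H2-T23 alone passed it. These lists had 7 of 7 and 9 of 10 genes higher in NPE tumors, so the pooled tests with H2-T23 carry the group difference of that gene. H2-T23 and the fibre list correlated at 0.32 within NPE tumors (permutation p = 0.26) and at 0.56 within PE tumors (exact permutation p = 0.188). Without the 2 farthest tumors that pooled r was 0.25.

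Adipocyte markers, a list added after seeing the data, correlated with all 9 genes over all tumors, at r of 0.63 to 0.86 with a median of 0.72. Inside the groups the median stood at 0.82 for NPE tumors and at 0.28 for PE tumors. The pooled r with H2-T23 was the highest and is given with no test, since both the gene and the list stood higher in NPE tumors. It was r = 0.86 over all tumors (rho = 0.86), 0.79 without the 2 farthest tumors, 0.86 within NPE tumors (permutation p = 8e-05) and 0.81 within PE tumors (exact permutation p = 0.0216). The 6 adipocyte markers were all higher in NPE tumors, with a median difference of 1.27 and none past the adjusted threshold. Their mean ran from 4.19 to 9.59 in NPE and from 4.11 to 6.45 in PE tumors. The 3 NPE tumors whose H2-T23 signal fell within the PE range, NPE tumors 11, 12 and 14 at 6.14, 6.29 and 6.48, had list means of 4.39, 4.61 and 5.39, and NPE tumor 13, with the lowest mean of 4.19, had an H2-T23 signal of 6.91. Within NPE tumors H2-D1 at 0.90 and H2-K1 at 0.88 were closer to the list than H2-T23, and within PE tumors Tap2 was closer at 0.93. The part of fat cells in the H2-T23 values was not tested. Without NPE tumors 1 and 2, the highest for the adipocyte list, the H2-T23 difference was 0.91, and without NPE tumors 11 and 12 it was 1.25. Both settings were chosen after seeing the data.

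**Figure D5:**
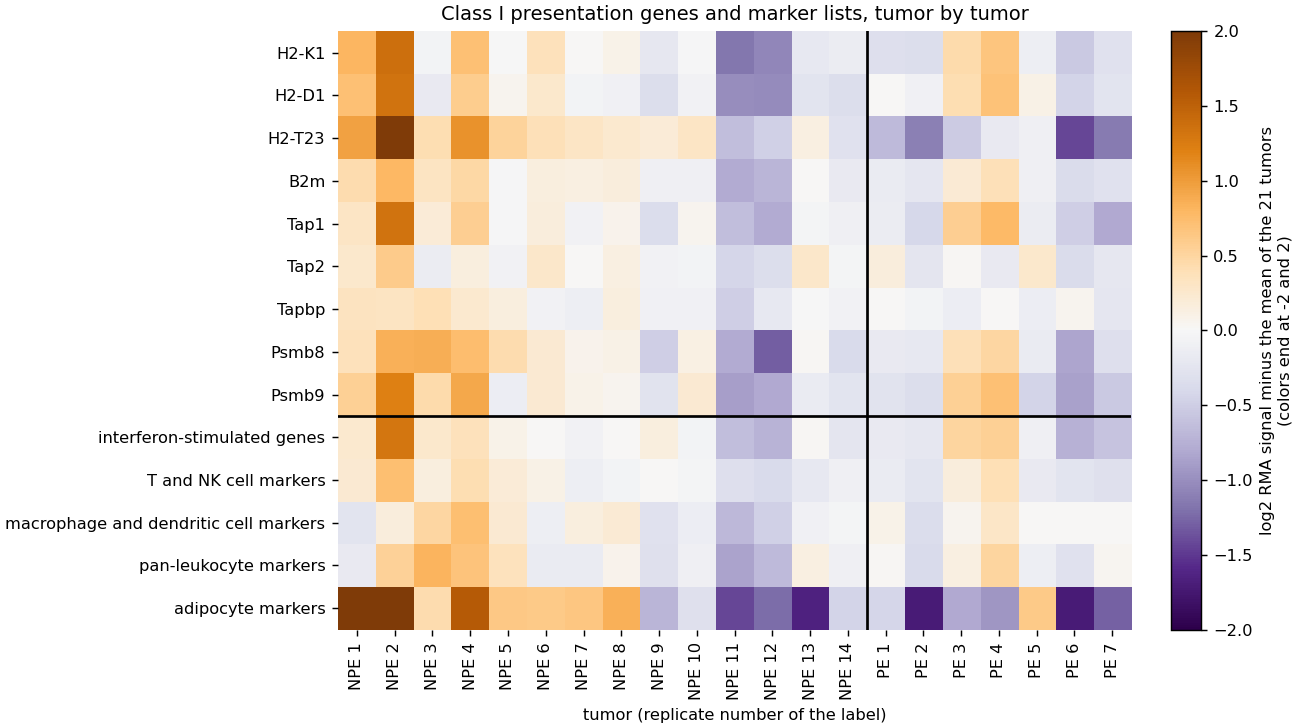
Log2 RMA signal of the 9 measured class I genes (upper rows) and the mean of 5 marker lists without them (lower rows), each row minus its mean over the 21 tumors, NPE tumors 1 to 14 left of PE tumors 1 to 7, with colors ending at -2 and 2. NPE tumor 2 is high and NPE tumors 11 and 12 are low in most rows, and H2-T23 is below its mean in all 7 PE tumors.

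The genes most like each member over the 21 tumors, by Pearson r among 19504 other genes, are a description, since these points share the same arrays. For H2-T23 they were Clec2d at 0.90, Aldh2 at 0.89, Gne at 0.89, Cyb5a at 0.89, Dipk2b at 0.88, H2-T22 at 0.88, Cd55 at 0.88, Ifit3 at 0.87, Slfn5 at 0.87 and Adipoq at 0.87. Clec2d encodes a ligand of an inhibitory NK receptor, Gne an enzyme of sialic acid synthesis, and Ifit3 and Slfn5 are interferon-induced. None of the other 8 measured genes was among the 20 genes most like H2-T23 over all tumors, a ranking that draws on the NPE minus PE difference for which H2-T23 was set apart. Within the 14 NPE tumors H2-D1 was the gene most like it, H2-K1 ranked 5, Tap1 6, Psmb9 9 and B2m 16.

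H2-K1 was most like H2-D1 (0.97), B2m (0.96) and Psmb9 (0.93). H2-D1 was most like H2-K1 (0.97), H2-Q2 (0.93) and Gm8909 (0.92). B2m was most like H2-K1 (0.96), Ly6e (0.95) and Psmb9 (0.94), and 5 of its 20 nearest genes were members. Tap1 was nearest to Psmb9 (0.94), H2-Q4 (0.93) and Gm12250 (0.92), and Psmb9 to Tap1 (0.94), B2m (0.94) and H2-K1 (0.93).

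Psmb8 was nearest to Ly6e (0.92), B2m (0.91) and Fli1 (0.91), Ly6e being interferon-induced and Fli1 an ETS factor of blood and endothelial cells. Tap2 was nearest to Oasl2 (0.84), Gm12216 (0.82) and Alcam (0.81), and Tapbp to Nmi (0.87), Idnk (0.86) and Cd302 (0.86). Over all tumors no member was among the 20 genes nearest to Tap2 or to Tapbp, against 2 for Psmb8 and 4 each for H2-K1, H2-D1, Tap1 and Psmb9. Within NPE tumors H2-K1 ranked 3, H2-D1 5, Tap1 12 and B2m 13 among the genes nearest to Tap2.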

How the data were processed

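Each of the 14 NPE and 7 PE tumors had 1 Clariom S Mouse array. The authors deposited RMA signals on the log2 scale (background correction, quantile normalization, median polish). The labels name Affymetrix Expression Console 1.1, and the scanned arrays were not used here. Of 28846 probe sets, 94 controls and 6546 with names beginning MG- were left out, and 22206 were tested. GEO's annotation named 1 gene for 19572 of them, several for 0 and none for 2634.

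The groups were compared by limma 3.58.1 in R 4.3.3 without covariates, with Benjamini-Hochberg adjustment over the 22206 probe sets. Differences within a tumor were tested over all 116280 splits, and correlations with 100000 resamples (exactly within the 7 PE tumors), all 2-sided. The fits were tested on simulated data. Planned pairs with Nlrc5 and the planned difference of Psmb8 and Psmb5 were not computed, because Nlrc5 and Psmb5 were not named. The members and lists were chosen with earlier results of these data known, and the adipocyte, endothelial and muscle fibre lists were added after seeing the data. Other genes named are those of the pathway lists with an unadjusted p under 0.05, the 10 genes most like H2-T23, the 3 most like each other member, Neu1 and H2-Eb1. H2-T24, Psmb7, Irf1, Ciita, Ifng, Klrd1, Klrc1, Cd3e, Hsf2bp, Derl3, H2-T10 and H2-M3 were outside that rule and chosen after their values were seen. Alternatives varied the test, normalization, probe sets and tumors. The number of arrays limits the precision.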

Additional observations from a re-analysis of the deposited data

How the results depend on the processing

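Under 16 other settings and with each of the 21 tumors left out, none of the 8 other members passed the adjusted threshold (with the methods' t-test also 0 before adjustment). H2-T23 kept a positive difference (0.97 to 1.20 without single tumors). It was set apart for this difference in these same tumors, so the kept sign is a description and no support. Without single tumors the median difference of the 8 was 0.07 to 0.21, and the count of all probe sets past the threshold 1 to 3 (2 as reported). That count was 1 with the methods' t-test, array weights, look-alike tumors averaged or NPE tumors 1 and 2 left out, 14 with the title-number range as a block, 4 within 18 to 23 and 355 within 28 to 35. The numbers of the labels did not pair the samples (r of deviations -0.31 to 0.13 in 7 pairs, 2 over 0.1, no PE tumor nearest to its own number). With the replicate block on tumors 1 to 7 the count was 243 and without the block 396. The H2-T23 difference was 1.54 and the median of the 8 was 0.43 in both. An unadjusted limma p under 0.05 was met by 4 of the 8 with and 5 without the block, with a lowest adjusted p of 0.0516. The share of all probe sets past that unadjusted threshold was not computed in these settings. The 4 and 5 can therefore not be read as particular to these genes.

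Signs turned as follows. Within 18 to 23 the median of the 8 was -0.069, with H2-K1 at -0.087, B2m at -0.12, Tap1 at -0.072, Tap2 at -0.067 and Tapbp at -0.018. Tapbp was -0.0055 with the range block. H2-D1 was 0.33 with the replicate block and with the same tumors unblocked, 0.032 within 28 to 35, 0.024 with look-alike tumors averaged, 0.074 without NPE tumors 11 and 12, and -0.20 to 0.015 without single tumors. H2-K1 was -0.069 without NPE tumors 1 and 2. H2-K1 minus B2m was 0.057 when quantile normalized again, 0.12 with the replicate block and -0.057 to 0.033 without single tumors. Psmb10 minus Psmb7 was 0.26 with the replicate block and -0.11 to 0.031 without single tumors. Without single tumors Psmb9 minus Psmb6 was 0.01 to 0.21 and H2-D1 minus B2m -0.26 to -0.17 (lowest adjusted exact permutation p = 0.0508).

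The median r of H2-T23 with the 8 was 0.93 within NPE tumors, 0.57 without NPE tumors 1 and 2, and 0.61 to 0.76 without single tumors. The median r among the 8 was 0.79 to 0.89 without single tumors. With RMS and muscle markers the median r of the 9 members was 0.75 within PE tumors and -0.48 to -0.31 without single tumors. With macrophage and dendritic cell markers it was 0.44 without NPE tumors 11 and 12, 0.73 without NPE tumors 1 and 2, and 0.52 to 0.68 without single tumors. With the other lists it was 0.85 to 0.90 (interferon-stimulated genes), 0.84 to 0.89 (T and NK cell markers) and 0.65 to 0.76 (pan-leukocyte markers). The cause of these changes was not tested. The settings that left out 2 tumors or the block were added after seeing the data, as was quantile normalization of the within-tumor differences.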
